A study of Phaseolus vulgaris with 21 samples.

Results

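The transcripts described here are 4 genes of the circadian clock of common bean (Phaseolus vulgaris), measured by RNA-seq in nectaries and leaf. They were chosen by their names, as the rows of the deposited table whose description carries the symbol LOC780539 (REVEILLE 1), LOC100785796 (PRR37-like), LOC100779044 (GIGANTEA) or LOC100796686 (ELF4-like). Each symbol had 1 row, so they make up 4 of 6359 rows. All 4 passed the filter on low values and were among the 6351 rows tested. The bean reads had been counted on transcripts of soybean (Glycine max), so each name is that of a soybean transcript, and reads of near-identical copies cannot be told apart.

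All plants were the cultivar Blue Lake 274, raised at 23 °C in 16 h days and 8 h nights with 250 µmol of photons per square metre per second. There were 3 libraries in each of 7 tissues. These were the extrafloral nectaries (EFN) of the stem, found below lateral trifoliate leaves, the EFN at the base of the terminal trifoliate leaf (leaf EFN), the floral nectary (FN) at 4 stages, and leaf. The floral stages were pre1, 24 h before the flower opened (anthesis), pre2, 12 h before it, sec, the nectar-secreting stage, sampled 3 h after dawn with the flower fully open, and post, 12 h later than sec. Counting back and forward from sec, pre1 and sec were taken 3 h after dawn and pre2 and post 15 h after dawn, which puts the same 2 hours on 2 successive days. No hour is given for the leaf and EFN collections. No label mentions separate plants for the 3 libraries of a tissue, so the p-values measure the spread between libraries, which may be technical.

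The plant clock is a loop of transcriptional repressors and activators that take turns over the day. MYB-like factors of the LHY and REVEILLE family act around dawn, pseudo-response regulators (PRR) repress them in sequence through the day, and GIGANTEA, the ZEITLUPE family and the evening complex, to which ELF4 belongs, act from afternoon into night. These roles are known mainly from Arabidopsis. In flowers of Nicotiana attenuata the clock is known to time flower opening and scent release.

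Sums of the normalized values ran from 2616502 to 4270943 per library. Pearson correlations of log2 values between libraries of 1 tissue ran from 0.932, in stem EFN, to 0.986, in sec. The 13 leaf mesophyll marker rows summed to 92497 to 111406 in stem EFN, 19257 to 29703 in leaf EFN and 431 to 1312 over the floral libraries, against 220476 to 426465 in leaf. The 7 nectary marker rows summed to 2173 to 2420 in stem EFN, 1028 to 1476 in leaf EFN and 40346 to 227244 over the floral libraries, against 1369 to 2311 in leaf, where 4 of the 7 were at 0 in all 3 libraries. The nectary markers were thus high in the floral libraries. In the EFN their sum overlapped with leaf, where LOC100810946 alone held 1143 to 2021 of it, and against leaf 5 of the 7 rows were called higher in stem EFN, and 2 higher and 1 lower in leaf EFN. All leaf EFN libraries were at 0 in 2 of the 7 rows, and all stem EFN libraries in 1. The 3 carpel and ovule rows summed to 1646 to 4431 over the floral libraries, 17 to 50 in stem EFN and 19 to 43 in leaf EFN, against 6 to 7 in leaf. The single phloem row ran from 710 to 1386 over all libraries. A list of pollen and anther genes matched no row.

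REVEILLE 1 and the ELF4-like transcript were high in floral nectaries and low in leaf and EFN, while the PRR37-like transcript was high in leaf. GIGANTEA was highest in leaf, lower in floral nectaries and lowest in leaf EFN. Over the floral series, no member passed the test between the 15 h and the 3 h collections of both days. REVEILLE 1 was higher at 15 h than at 3 h on the day before anthesis, and this 12 h change differed between the days. The ELF4-like transcript was lower on the day of anthesis than on the day before at both hours. REVEILLE 1 and the PRR37-like transcript were lower at 15 h, the second with a call lost when any of 4 libraries was left out.

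REVEILLE 1 is a MYB-like factor of the LHY family that in Arabidopsis peaks near dawn and links the clock to auxin synthesis. Its normalized value in stem EFN was 100, 161 and 104 in libraries 1, 2 and 3, and in leaf EFN 158, 132 and 193. In the floral series it was 596, 1167 and 1465 in pre1, then 2162, 2431 and 2219 in pre2, then 1478, 1585 and 1316 in sec, and 1310, 1257 and 1104 in post. In leaf it was 85, 91 and 84. The 3 pre2 libraries were above every other library, every floral library was above every EFN and leaf library, and pre1 overlapped with sec and with post. From high to low the tissue means were 2271 ± 142 in pre2, 1460 ± 135 in sec, 1224 ± 107 in post, 1076 ± 442 in pre1, 161 ± 30.6 in leaf EFN, 122 ± 34.1 in stem EFN and 86.7 ± 3.79 in leaf (SD, n = 3 each). In that order post and pre1 overlapped, and so did the EFN pair.

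The PRR37-like row is paired in the table with Arabidopsis PRR7, a daytime repressor of the dawn genes. In sorghum, PRR37 delays flowering in long days. Its normalized value in stem EFN was 2257, 1421 and 579 in libraries 1, 2 and 3, and in leaf EFN 632, 673 and 945. In the floral series it was 688, 855 and 777 in pre1, then 634, 599 and 645 in pre2, then 460, 500 and 551 in sec, and 385, 295 and 303 in post. In leaf it was 4100, 3451 and 3336. Leaf stood above all other tissues, and the 4 floral stages stepped down in their own order with no overlap between neighbouring stages. The means were 3629 ± 412 in leaf, 1419 ± 839 in stem EFN, 773 ± 83.6 in pre1, 750 ± 170 in leaf EFN, 626 ± 24.0 in pre2, 504 ± 45.6 in sec and 328 ± 49.8 in post (SD, n = 3 each). The stem EFN libraries spread so widely that they overlapped with pre1, leaf EFN and pre2.

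GIGANTEA is a large plant-specific protein that in Arabidopsis steadies ZEITLUPE, and with FKF1 removes repressors of the flowering gene CONSTANS in the afternoon. The row is transcript variant X1. Its normalized value in stem EFN was 1360, 945 and 517 in libraries 1, 2 and 3, and in leaf EFN 399, 434 and 439. In the floral series it was 1351, 2227 and 1848 in pre1, then 1566, 1483 and 1489 in pre2, then 1444, 1803 and 1557 in sec, and 1444, 1149 and 814 in post. In leaf it was 3127, 2421 and 2984. The leaf libraries were above all others and the leaf EFN libraries below all others. The means were 2844 ± 373 in leaf, 1809 ± 439 in pre1, 1601 ± 184 in sec, 1513 ± 46.3 in pre2, 1136 ± 315 in post, 941 ± 422 in stem EFN and 424 ± 21.8 in leaf EFN (SD, n = 3 each). Pre1, sec and pre2 overlapped with one another. Post overlapped with pre1, sec and stem EFN but not with pre2, and stem EFN also overlapped with pre1.

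The ELF4-like row is paired with Arabidopsis ELF4 and its relative ELF4-L1. ELF4 is a small protein that, with ELF3 and LUX, forms the evening complex, a repressor of daytime and growth genes. Its normalized value in stem EFN was 60, 71 and 218 in libraries 1, 2 and 3, and in leaf EFN 138, 150 and 129. In the floral series it was 886, 1038 and 1057 in pre1, then 827, 811 and 850 in pre2, then 381, 339 and 477 in sec, and 545, 253 and 222 in post. In leaf it was 28, 44 and 62. The libraries of the day before anthesis were all above those of the day of anthesis, at either hour. The means were 994 ± 93.7 in pre1, 829 ± 19.6 in pre2, 399 ± 70.7 in sec, 340 ± 178 in post, 139 ± 10.5 in leaf EFN, 116 ± 88.2 in stem EFN and 44.7 ± 17.0 in leaf (SD, n = 3 each). Sec and post overlapped, and stem EFN overlapped with leaf EFN and with leaf.

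**Figure D1:**
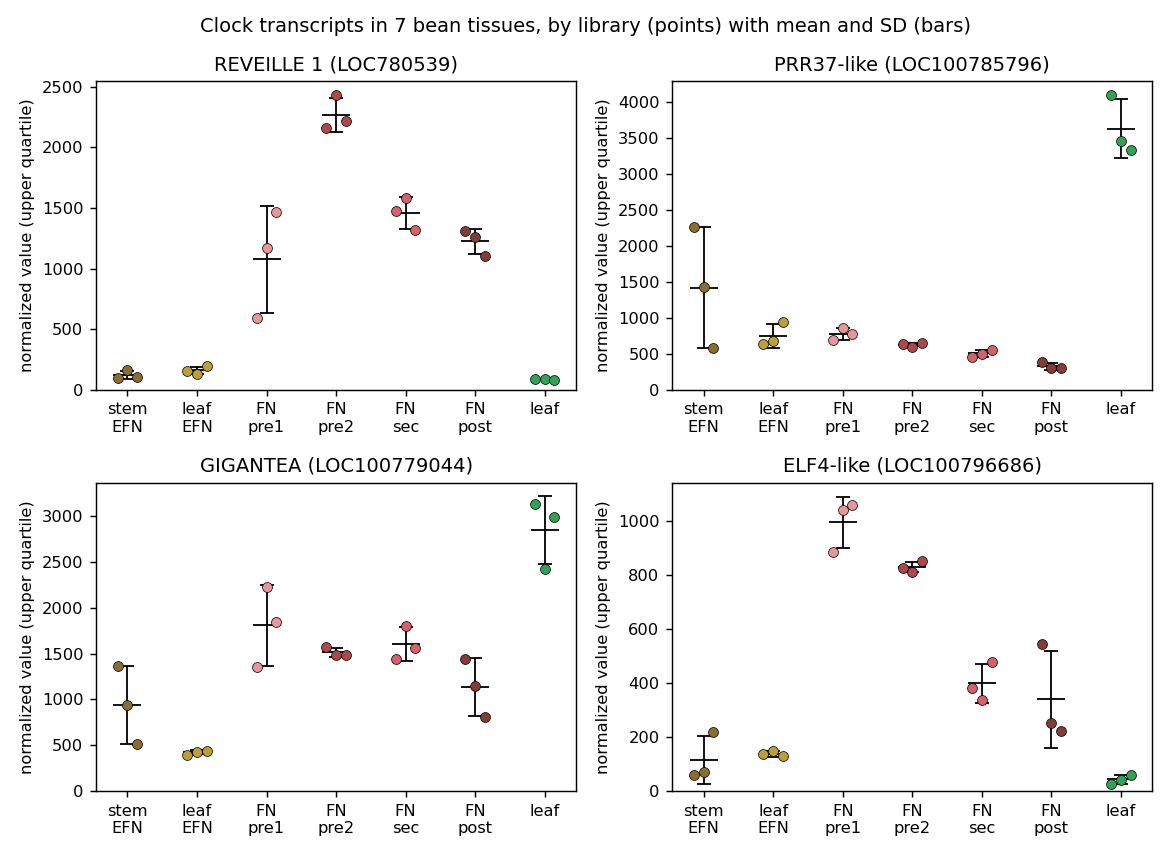
Normalized value (linear axis from 0) of the 4 clock transcripts in each library of the 7 tissues (points, libraries 1 to 3 from left to right), with the mean and SD of 3 libraries as bars. REVEILLE 1 reaches 2431 in pre2 and stays under 200 in EFN and leaf, whereas the PRR37-like transcript is 3336 or more in leaf and at most 855 in the floral nectary.

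To ask whether the hour of day set the members apart, pre2 and post, 15 h after dawn, were compared with pre1 and sec, 3 h after dawn, each stage with equal weight. The 15 h stage of each day came 12 h after its 3 h stage. A steady change over the 4 stages thus also enters this comparison. Values were compared as log2(value + 1) in limma, with Benjamini-Hochberg adjustment over all rows tested and a call at an adjusted p under 0.05. Of all rows, 12.3% were called, 488 higher and 295 lower at 15 h. None of the 4 members was called by limma, while REVEILLE 1 and the PRR37-like transcript had an unadjusted p under 0.05, as had 1712 of the rows tested.

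REVEILLE 1 ranged from 1104 to 2431 with a median of 1736 at 15 h, and from 596 to 1585 with a median of 1390.5 at 3 h. Its log2 fold change was 0.46 (SE 0.173, 95% interval 0.10 to 0.82, adjusted p = 0.0923 by limma). Without library 3 of pre1 it was 0.59 and was called (adjusted p = 0.0217). Its 2 hours overlapped, the highest values being the 3 of pre2 and the lowest library 1 of pre1.

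The PRR37-like transcript ranged from 295 to 645 at 15 h and from 460 to 855 at 3 h, a log2 fold change of -0.46 (95% interval -0.92 to -0.01, adjusted p = 0.176 by limma). In a limma fit of only the libraries compared it was called (adjusted p = 0.00559). GIGANTEA ranged from 814 to 1566 at 15 h and from 1351 to 2227 at 3 h, a log2 fold change of -0.38 (95% interval -0.77 to 0.02, adjusted p = 0.205). The ELF4-like transcript ranged from 222 to 850 at 15 h and from 339 to 1057 at 3 h, a log2 fold change of -0.30 (95% interval -0.86 to 0.27, adjusted p = 0.522). The 2 hours overlapped for every member, and the intervals of GIGANTEA and the ELF4-like transcript include 0. Of the rows tested, 0.756% had 6 libraries at 15 h that did not overlap with the 6 at 3 h, and this held for 0 of the 4 members and 0 of the 22 core clock rows described further on. Only 2 hours of the day were sampled, so neither the phase nor the amplitude of a rhythm can be read from these values.

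Taken day by day, REVEILLE 1 was higher in pre2 than in pre1 (log2 fold change 1.17, SE 0.245, adjusted p = 0.00246 by limma), a comparison in which 19.5% of rows were called. The pre2 libraries ran from 2162 to 2431 and the pre1 libraries from 596 to 1465, with no overlap. Library 1 of pre1 was the lowest, and without it the log2 fold change was 0.79 (adjusted p = 0.0143). The summed nectary markers were 96201, 168586 and 194670 in libraries 1, 2 and 3 of pre1, against 211992 to 227244 in pre2. Of these sums LOC100810946 alone held 28795, 77194 and 105664 in pre1, and 123228 to 138070 in pre2. Among the 7 nectary rows, 4 rose and 3 fell from pre1 to pre2, with 0 called higher and 1 called lower. The part of these markers in the REVEILLE 1 difference was not tested.

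On the day of anthesis the same 12 h change of REVEILLE 1, post over sec, was -0.25 on the log2 scale (adjusted p = 0.657 by limma), where 5.73% of rows were called. The change of the second day minus that of the first was -1.43 (SE 0.346, adjusted p = 0.00947), and 14.6% of rows were called in that comparison. It remained called without any 1 of the 12 floral libraries, between -1.70 and -1.05. The test of the difference therefore separated the days for REVEILLE 1, and day and stage of the flower cannot be told apart in this design. MYB177, the other row matched to Arabidopsis REVEILLE 1, was not called in pre2 over pre1 (0.52, adjusted p = 0.261 by limma). Nor was it called in the difference between the days (-0.85, adjusted p = 0.220).

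For the other 3 members no difference between the days in the 12 h change was called. The difference was -0.33 for the PRR37-like transcript (95% interval -1.23 to 0.58, adjusted p = 0.663), -0.30 for GIGANTEA (-1.09 to 0.49, adjusted p = 0.640) and -0.08 for the ELF4-like transcript (-1.20 to 1.05, adjusted p = 0.942), all by limma. Nor was any of them called in a single 12 h step in the model of all libraries. A limma fit of only the libraries compared called the PRR37-like transcript in sec over pre2 (adjusted p = 0.0302) and post over sec (adjusted p = 0.0317). That fit also called the ELF4-like transcript in sec over pre2 (adjusted p = 6.69e-05). From pre1 on, the steps of the PRR37-like transcript were -0.30, -0.32 and -0.63, those of GIGANTEA -0.23, 0.08 and -0.53, and those of the ELF4-like transcript -0.26, -1.07 and -0.34. In the step with the change of day, sec over pre2, 21.4% of rows were called, and the value of REVEILLE 1 was -0.64 (adjusted p = 0.0718) and that of the ELF4-like transcript -1.07 (adjusted p = 0.0518). Both had no overlap between the stages in that step, nor had the PRR37-like transcript, at 460 to 551 in sec and 599 to 645 in pre2. The share of all rows with no such overlap was not taken, here or in any other comparison of 3 libraries with 3.

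Setting the same hour of successive days side by side removes the hour from the comparison. At 3 h after dawn, sec over pre1, 45.9% of rows were called. The ELF4-like transcript was lower in sec, at 339 to 477, than in pre1, at 886 to 1057 (log2 fold change -1.32, SE 0.380, adjusted p = 0.00806 by limma). The other members were not called, with 0.53 for REVEILLE 1 (adjusted p = 0.0837), -0.62 for the PRR37-like transcript (adjusted p = 0.110) and -0.15 for GIGANTEA (adjusted p = 0.668). Without library 3 of pre1, REVEILLE 1 was called with 0.80 (adjusted p = 0.0124).

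At 15 h after dawn, post over pre2, 38.2% of rows were called, and 3 of the 4 members fell. The ELF4-like transcript fell by 1.40 on the log2 scale (SE 0.380, adjusted p = 0.00673 by limma), to 222 to 545 in post, against 811 to 850 in pre2. The PRR37-like transcript fell by 0.94 (SE 0.306, adjusted p = 0.0204), to 295 to 385 in post, against 599 to 645 in pre2. That call was lost when any of 4 libraries was left out, with adjusted p of 0.0518 without library 1 of pre2, 0.0563 without its library 3, 0.0693 without library 2 of post and 0.066 without its library 3. REVEILLE 1 fell by 0.89 (SE 0.245, adjusted p = 0.00729), to 1104 to 1310 in post, against 2162 to 2431 in pre2. GIGANTEA was not called, at -0.45 (adjusted p = 0.193), although its 814 to 1444 in post lay below its 1483 to 1566 in pre2. In pieces of tissue, fewer cells of a type and less RNA per cell cannot be told apart. The summed nectary markers were 40346 to 123275 in post and 211992 to 227244 in pre2, and their part in these differences was not tested.

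**Figure D2:**
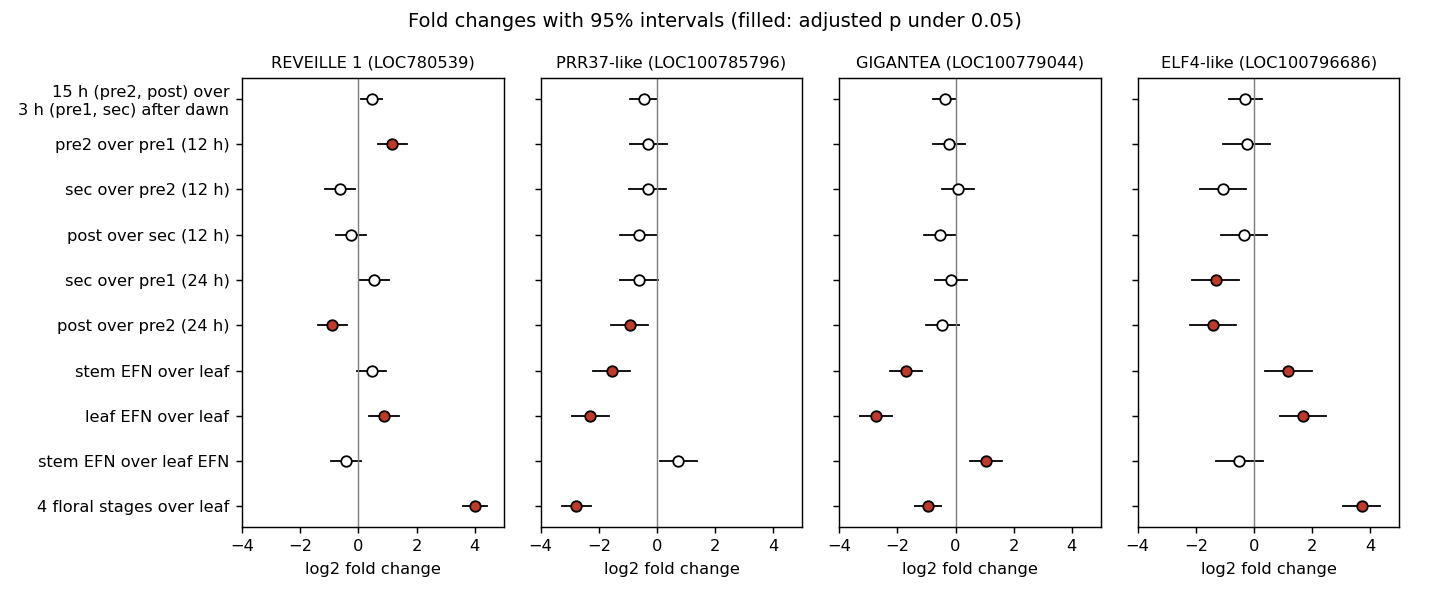
Log2 fold change of the normalized value + 1 (x axis) for 4 clock transcripts in 10 comparisons (rows), with 95% intervals from the limma model as lines and filled points where the adjusted p is under 0.05. In the top row, 15 h over 3 h after dawn, no point is filled, while all 4 transcripts are called in leaf EFN over leaf and in the floral stages over leaf.

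The variance between the 4 stage means was split into a part for the hour, a part for the day and a part for their interaction, on the log2 scale. For REVEILLE 1 the interaction held 67.6%, the hour 28.0% and the day 4.35%. For the ELF4-like transcript the day held 95.4% and the hour 4.49%. For the PRR37-like transcript the day held 71.6% and the hour 25.3%. GIGANTEA was the one member in which the hour held most, with 55.7%, but its stage means spanned 0.68 on the log2 scale. In the median over 6120 rows with a floral mean of at least 10, the hour held 12.0%, the day 63.6% and the interaction 13.5%, and stage means spanned 0.90. The split is a description, and the day includes everything that changed in the flower over 24 h. The hour part likewise includes any steady change over the stages.

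In the authors' deposited table, which calls differences between neighbouring stages with a yes or no, REVEILLE 1 is called for pre1 against pre2 and for pre2 against sec. The authors' deposited table calls the ELF4-like transcript for pre2 against sec only, the PRR37-like transcript for sec against post only, and GIGANTEA for none of the 3 steps. The authors' deposited table also calls all 4 members between sec and leaf EFN, all but the PRR37-like transcript between sec and stem EFN, and none between leaf EFN and stem EFN. Of all 6359 rows, the authors' deposited table calls 1199 for pre1 against pre2, 1900 for pre2 against sec, 627 for sec against post, 3420 between sec and leaf EFN, 3179 between sec and stem EFN and 131 between leaf EFN and stem EFN. For the members together, the limma calls for single steps in the model of all libraries are fewer, with 1 for REVEILLE 1 and 0 for the other members. Over all rows tested, limma called 1237 in pre2 over pre1, 1357 in sec over pre2 and 364 in post over sec.

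In floral nectaries, all stages weighted equally, all 4 members differed from leaf, in a comparison where 75.8% of rows were called. REVEILLE 1 was higher, at 596 to 2431 with a median of 1390.5 over 12 floral libraries, against 84 to 91 in leaf (log2 fold change 4.02, SE 0.193, adjusted p = 5e-13 by limma). The ELF4-like transcript was higher, at 222 to 1057 with a median of 678, against 28 to 62 in leaf (3.70, SE 0.301, adjusted p = 1.17e-09). The PRR37-like transcript was lower, at 295 to 855 with a median of 575, against 3336 to 4100 in leaf (-2.77, SE 0.242, adjusted p = 3.53e-09). GIGANTEA was lower by a smaller amount, at 814 to 2227 with a median of 1486, against 2421 to 3127 in leaf (-0.94, SE 0.211, adjusted p = 0.000511). The GIGANTEA-like LOC100800578, another row matched to Arabidopsis GIGANTEA, was higher (2.71, adjusted p = 9.2e-05). Its values were low, with means of 50.3 in pre1 and 2.33 in leaf. For all 4 members the floral and leaf libraries did not overlap, but the share of all rows for which this holds was not taken. The median over all rows was 0.38 on the log2 scale, and it moved by -0.27 with rescaling by median ratios and by -0.34 with equal upper quartiles, under which the share of calls that were higher was 53.8% and 51.1% in place of 63.4%. The 4 members kept their direction and call under both. The hour of the leaf collection is not given, so hour and tissue cannot be told apart here or in the comparisons of the EFN with leaf.

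Leaf EFN differed from leaf in all 4 members, where 46.9% of rows were called. GIGANTEA was lower, at 399 to 439 in leaf EFN and 2421 to 3127 in leaf (log2 fold change -2.74, SE 0.267, adjusted p = 2.16e-07 by limma). The PRR37-like transcript was lower, at 632 to 945 in leaf EFN and 3336 to 4100 in leaf (-2.29, SE 0.306, adjusted p = 8.1e-06). The ELF4-like transcript was higher, at 129 to 150 in leaf EFN and 28 to 62 in leaf (1.68, SE 0.380, adjusted p = 0.00134). REVEILLE 1 was higher, at 132 to 193 in leaf EFN and 84 to 91 in leaf (0.87, SE 0.245, adjusted p = 0.00699). MYB177, the other row matched to Arabidopsis REVEILLE 1, went the opposite way and was lower in leaf EFN (-1.29, adjusted p = 0.00254). The median over all rows in this comparison was 0.13. The summed leaf mesophyll markers were also lower outside leaf, at 19257 to 29703 in leaf EFN and 431 to 1312 in floral nectaries, against 220476 to 426465 in leaf, and their part in these differences was not tested.

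Stem EFN, set against the same leaf libraries, had 34.8% of rows called. Its GIGANTEA libraries all lay between those of leaf EFN and leaf, while for the PRR37-like transcript they overlapped with leaf EFN, library 3 being below all leaf EFN libraries. GIGANTEA was lower than in leaf (log2 fold change -1.69, SE 0.267, adjusted p = 9.4e-05 by limma), with 517 to 1360 in stem EFN. The PRR37-like transcript was lower (-1.55, SE 0.306, adjusted p = 0.000726), with 579 to 2257 in stem EFN, and was at -1.01 without library 3 of stem EFN (adjusted p = 0.00123). The ELF4-like transcript was higher (1.18, SE 0.380, adjusted p = 0.0218), but this rested on single libraries: without library 3 of stem EFN it was 0.61 (adjusted p = 0.161) and without library 1 of leaf it was 0.89 (adjusted p = 0.112). REVEILLE 1 was not called (0.45, adjusted p = 0.161), although its 100 to 161 in stem EFN lay above its 84 to 91 in leaf.

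Between the extrafloral nectaries, stem EFN over leaf EFN, 5.37% of rows were called. GIGANTEA was the one member called, higher in stem EFN, at 517 to 1360, than in leaf EFN, at 399 to 439 (log2 fold change 1.04, SE 0.267, adjusted p = 0.0278 by limma). This call was lost without library 1 of stem EFN (adjusted p = 0.152), library 2 of stem EFN (0.0822), library 1 of leaf EFN (0.0773) or library 2 of leaf EFN (0.0972). Library 3 of stem EFN stood apart in 3 members, with the lowest PRR37-like and GIGANTEA values and the highest ELF4-like value of its tissue. Without it, the PRR37-like transcript was called higher in stem EFN (1.28, adjusted p = 0.000778) and the ELF4-like transcript lower (-1.08, adjusted p = 0.0387), against 0.74 (adjusted p = 0.188) and -0.50 (adjusted p = 0.512) with it. The summed leaf mesophyll markers were 111406, 105716 and 92497 in libraries 1, 2 and 3 of stem EFN, against 19257 to 29703 in leaf EFN, and their part in these differences was not tested.

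Because the PRR37-like and GIGANTEA transcripts were both lower in every nectary tissue than in leaf, their ratio was taken within each library. The normalized value of the PRR37-like transcript divided by that of GIGANTEA was between 1.12 and 1.66 in stem EFN and between 1.55 and 2.15 in leaf EFN. It was between 0.257 and 0.509 in all 12 floral libraries, against 1.12 to 1.43 in leaf. The EFN, where both were lower than in leaf, thus had ratios of at least 1.12, and the floral nectaries ratios no higher than 0.509. A ratio within a library does not depend on its scaling, but since transcript lengths were not used, it does not say which of the pair was more abundant.

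Other clock genes were taken from lists of Arabidopsis genes, by the match that the table gives for each row. The dawn and morning list of 16 loci had 12 rows and the afternoon and evening list of 15 loci had 11, with 1 row in both, a PRR95 row (LOC100809490_XM_006604851.2) matched to PRR5 and PRR9. These 22 rows, the 4 members among them, were all tested. At 15 h over 3 h, 2 were called higher and 1 lower, so 3 of 22 against 12.3% of all rows. The higher rows were the REVEILLE 6-like LOC100791774 (log2 fold change 1.21, adjusted p = 0.0177 by limma) and MYB133, matched to REVEILLE 6 and 3 (0.48, adjusted p = 0.0489), and the lower row was the REVEILLE 8-like LOC100783482 (-0.64, adjusted p = 0.027). The REVEILLE 6-like call was lost without library 2 of pre2 (adjusted p = 0.054), the REVEILLE 8-like call without any of 7 of the 12 floral libraries (adjusted p up to 0.0811) and the MYB133 call without any of 10 of them (up to 0.140) and under both other scalings. None of the 11 afternoon and evening rows was called, their values running from -1.15 to 0.54. The 2 rows called higher also rose from pre1 to pre2 and on to sec, and hour and stage cannot be told apart for them.

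The lower REVEILLE 8-like value came from the day of anthesis, with 231, 148 and 127 in post and 364, 371 and 412 in sec (log2 fold change -1.22, adjusted p = 0.00718), where it was the one core row called, 1 of 22 against 5.73% of all rows. Without library 3 of post it was not called (adjusted p = 0.0624), and without library 1 of post 4 core rows were called lower. The REVEILLE 6-like row was at 0, 2 and 6 in pre1, 11, 20 and 13 in pre2, 45, 43 and 37 in sec, and 33, 44 and 44 in post, values that rest on few reads at the start of the series. It was lower than in leaf over the 4 stages together (-2.59, adjusted p = 1.82e-06), where it was 118, 85 and 94. REVEILLE 6 and REVEILLE 8 are activators in the Arabidopsis clock.

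In pre2 over pre1, 3 of 22 core rows were called, all higher, against 19.5% of all rows. They were REVEILLE 1, the REVEILLE 6-like row (2.46, adjusted p = 0.000853) and MYB133 (0.81, adjusted p = 0.014). The MYB133 call was lost without library 1 of pre1 (adjusted p = 0.0961), and without library 3 of pre1 the count was 5. In the difference between the days, 5 of 22 were called, against 14.6% of all rows. The 5 were all negative, as were 627 of the 927 calls over all rows, and all of the dawn and morning list, in which all 12 rows had a negative value with a median of -1.06. The median over all rows was -0.07. Beside REVEILLE 1 they were the REVEILLE 6-like row (-2.52, adjusted p = 0.0118), MYB118, matched to REVEILLE 4 and 8 (-1.77, adjusted p = 0.0127), the REVEILLE 8-like row (-1.16, adjusted p = 0.0393), and the ASG4-like LOC100783949 (-1.36, adjusted p = 0.0188), whose call was lost without library 1 of pre1 (0.0561), library 3 of sec (0.0516) or library 3 of post (0.059). The REVEILLE 8-like call was lost without any of 10 of the 12 floral libraries (adjusted p up to 0.109). The count ran from 3, without library 1 of pre1, to 8, without library 1 of post. The afternoon and evening rows had 0 called, 5 positive and 6 negative values, and a median of -0.08. Negative values were not particular to the dawn and morning list. The 8 clock output rows described below had a median of -1.06, with 7 negative, and the 3 carpel and ovule rows -1.15, all negative. The 7 nectary rows had a median of -0.87, with 4 negative and 3 positive.

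Between the days at the same hour, the core rows moved in both directions. In sec over pre1, 4 of 22 were higher and 2 lower, against 45.9% of rows called. In post over pre2, 3 were higher and 9 lower, against 38.2%. MYB133 was higher in both (2.30, adjusted p = 1.19e-07 in sec over pre1 and 1.64, adjusted p = 1.2e-05 in post over pre2), with means of 83.7 ± 22.7 in pre1, 144 ± 10.6 in pre2, 408 ± 45.7 in sec and 454 ± 70.2 in post (SD, n = 3 each). The PRR95 row was also higher in both (1.81, adjusted p = 0.000153 and 1.23, adjusted p = 0.00506), and ZTL2, a ZEITLUPE photoreceptor, was lower in both (-1.10, adjusted p = 8.81e-05 and -1.06, adjusted p = 0.000171). The other PRR95 row (LOC100809490_XM_014771989.1) was at -0.66 in post over pre2 and was not called (adjusted p = 0.151). In sec over pre2, 3 of 22 core rows were higher and 3 lower, against 21.4%, and MYB133 was the row with the smallest adjusted p (1.49, adjusted p = 8.29e-05). The 3 higher became 1 without library 3 of pre2, and the 3 lower became 1 without library 1 of sec.

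**Figure D3:**
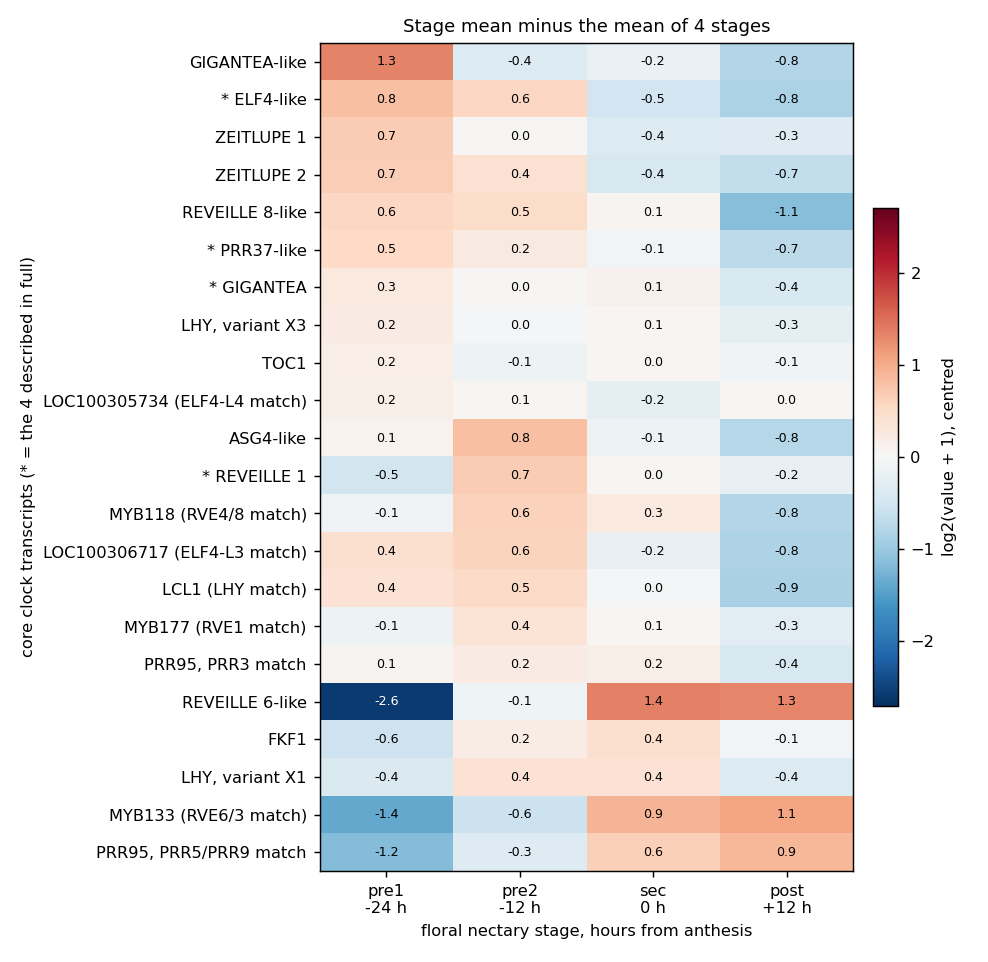
Heat map of 22 core clock transcripts (rows, the 4 described in full with an asterisk) over the 4 floral nectary stages (columns, hours from anthesis), showing the stage mean of log2(value + 1) minus the mean of the 4 stages for that transcript. Of the 22, 10 are highest in pre1, 7 in pre2, 3 in sec and 2 in post, and TOC1 spans 0.31 over the stages.

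Of the 22 core rows, 4 had the hour as the largest part of their stage variance (18.2%, against 12.0% of 6120 rows), 12 the day (54.5%, against 65.7%) and 6 the interaction (27.3%, against 22.3%). TOC1, the evening repressor of the dawn genes, was among those with the hour as the largest part, but its stage means ran only from 623 to 773. The dawn gene LHY, variant X1, had 99.9% in the interaction, with means of 2746 ± 1347 in pre1, 4347 ± 350 in pre2, 4508 ± 1214 in sec and 2831 ± 1352 in post (SD, n = 3 each). Its difference between the days was -1.55 and was not called (adjusted p = 0.0529). Across the 22 rows the 12 h change of the first day and that of the second had a Pearson correlation of 0.14 and a Spearman correlation of 0.05, and the same sign in 10 of 22 (45.5%, against 48.6% of 6120 rows). These are descriptions across transcripts of the same libraries, which are not independent.

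**Figure D4:**
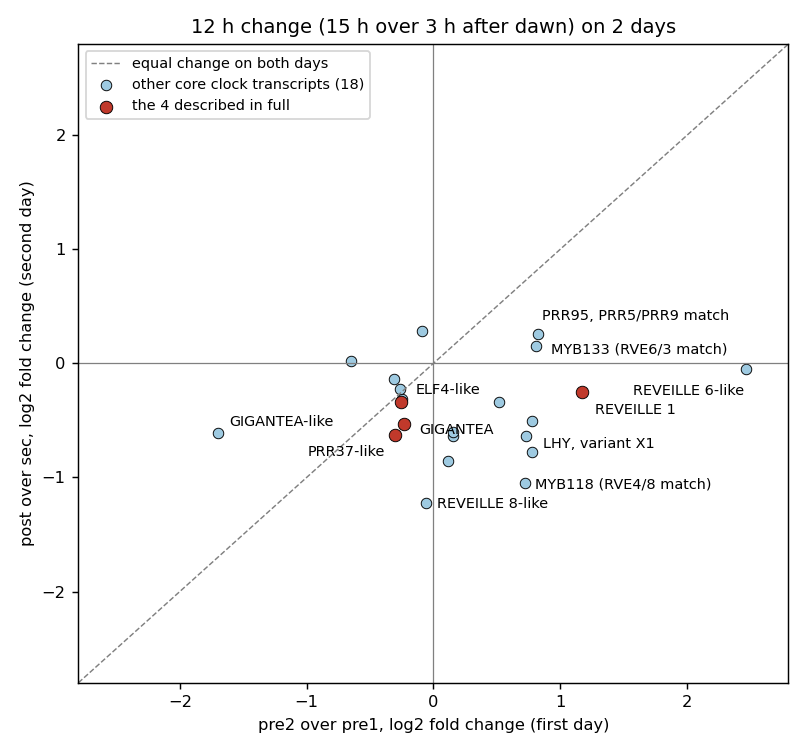
Log2 fold change of post over sec (y axis, second day) against that of pre2 over pre1 (x axis, first day), both 15 h over 3 h after dawn, for 22 core clock transcripts (points, red for the 4 described in full). A transcript with the same change on both days would lie on the dashed line, and REVEILLE 1, at 1.17 and -0.25, lies below it.

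Against leaf, 17 of 22 core rows were called in floral nectaries, 10 higher and 7 lower, against 75.8% of all rows. ZTL1 (5.30, adjusted p = 2.75e-10 by limma), which was at 3.33 ± 1.15 in leaf, and the ASG4-like row, of the REVEILLE family (3.11, adjusted p = 6.26e-11), were higher, as REVEILLE 1 was. LCL1, matched to LHY (-2.20, adjusted p = 1.47e-07), and LOC100305734, matched to ELF4-L4 (-2.99, adjusted p = 3.43e-10), were lower, the second of them opposite in direction to the ELF4-like member. Of all rows, 28.4% were called higher and 18.5% lower in leaf EFN than in leaf, and 22.3% higher and 12.5% lower in stem EFN. In leaf EFN, 2 core rows were higher and 13 lower than in leaf, so 15 of 22 against 46.9%. In stem EFN 1 core row was higher and 8 lower, so 9 of 22 against 34.8%. Leaving out 1 library gave 10 to 12 lower in leaf EFN, and 6 to 9 lower and 0 to 1 higher in stem EFN. The higher rows in both were members, REVEILLE 1 and the ELF4-like transcript in leaf EFN and the ELF4-like transcript in stem EFN. Both comparisons share the leaf libraries. The lower rows included both PRR95 rows in each, with -2.27 and -2.93 in leaf EFN and -1.45 and -1.60 in stem EFN. Between the EFN, GIGANTEA and the PRR95 row matched to PRR3 (LOC100809490_XM_014771989.1, 1.32, adjusted p = 0.0368) were higher in stem EFN. Both calls were lost without library 1 or 2 of either EFN, and the count of higher core rows ran from 0, without library 1 of leaf EFN, to 6, without library 3 of stem EFN.

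For each member, the rows most like it were taken as those with the highest Pearson correlation of log2 values over all 21 libraries, among 6140 rows with a mean of at least 10. For REVEILLE 1 they were the uncharacterized LOC100787318 and LOC100784767 and a xyloglucan endotransglucosylase/hydrolase (LOC100800017), each with a correlation of 0.986. For the PRR37-like transcript they were LOC100800200 (0.981), LOC100816118 (0.955) and LOC100805603 (0.940), all uncharacterized. For GIGANTEA they were a CDP-diacylglycerol-forming enzyme row (LOC100802781, 0.933), the uncharacterized LOC100802991 (0.918) and a cyclin-L1-1-like row (LOC100820383, 0.916). For the ELF4-like transcript they were a protein disulfide isomerase-like row (LOC100170705, 0.973), the uncharacterized LOC100305505 (0.972) and cyclin-U2-1 (LOC100791103, 0.970). Between members the correlation was 0.868 for REVEILLE 1 with the ELF4-like transcript, -0.717 for REVEILLE 1 with the PRR37-like transcript, -0.701 for the PRR37-like with the ELF4-like transcript and 0.441 for the PRR37-like transcript with GIGANTEA. It was 0.206 for REVEILLE 1 with GIGANTEA and 0.042 for GIGANTEA with the ELF4-like transcript. The libraries share tissues, so these values describe how alike the tissue patterns are.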

How the data were processed

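RNA-seq was made from 21 libraries, 3 in each of 7 tissues, as 50 bp paired-end reads pooled over 2 lanes, per the labels' protocols. The deposited values are a score: upper-quartile-normalized read counts on soybean RefSeq transcripts, which the authors deposited as whole numbers, per the file headers. The mapper is not given in the sources used here. DESeq is listed among the authors' tools, per the submitters' processing notes, without a version. Depth as raw reads is not given. The members, clock lists, marker lists and tests were chosen with earlier results of these data known, and lists were matched by the Arabidopsis locus that the table pairs with a row.

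Values were taken as log2(value + 1), which understates fold changes of low rows. The filter was a row mean of 1 or more, which kept 6351 rows for testing and left out 8. All libraries entered 1 model with 7 tissue means and 14 residual degrees of freedom in limma 3.58.1 (R 4.3.3), two-sided, with a mean-dependent prior variance. Benjamini-Hochberg adjustment ran over all rows tested, with calls at an adjusted p under 0.05. The model was tested on simulated data. The 15 h against 3 h comparison weights its 2 stages a side equally. The 4 members are named in every comparison, and of each list up to 3 further rows with the smallest adjusted p. LHY, variant X1, TOC1, and the REVEILLE 8-like row in the difference between days were named after their values were seen where the rule does not reach them. The same holds for MYB177 in the floral series and the GIGANTEA-like row over leaf. Alternatives were a pseudocount of 10, no filter or a mean of at least 10, median ratios, equal upper quartiles, a fit of only the libraries compared, a replicate block and leaving out each library.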

Additional observations from a re-analysis of the deposited data

Results flagged for a closer look

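The 12 h change of the second day, post over sec, differed from that of the first day, pre2 over pre1, for 8 of the 38 clock, output and light-input rows by the limma test of the difference, against 14.6% of all rows. REVEILLE 1 (LOC780539) had a second-day change minus first-day change of -1.43 on the log2 scale, with values of 1310, 1257 and 1104 in post, 1478, 1585 and 1316 in sec, 2162, 2431 and 2219 in pre2 and 596, 1167 and 1465 in pre1. The other core clock rows were the REVEILLE 6-like LOC100791774 with -2.52, MYB118 with -1.77, the ASG4-like LOC100783949 with -1.36 and the REVEILLE 8-like LOC100783482 with -1.16, whose call (adjusted p = 0.0393) was lost without any of 10 of the 12 floral libraries, with adjusted p up to 0.109. Among clock outputs, the cyclic dof factor 3 row LOC778113 had -2.21 and LOC100305571, matched to CONSTANS and a B-box gene, had -3.48. PHYB, a phytochrome B-like red light receptor, had -0.91. All 8 were negative, and of the 927 rows called in that comparison, 627 were negative. For LOC100305571 the call was lost without any of 6 of the 12 floral libraries, with adjusted p up to 0.0794.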

How the results depend on the processing

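Of the results for the 4 members, most kept their direction and side of the threshold under every alternative, and no called value changed direction. Values that were not called changed sign in 3 cases when 1 library was left out: GIGANTEA in sec over pre2 (-0.01 to 0.15) and sec over pre1 (-0.35 to 0.01), and the ELF4-like transcript in the difference between days (-0.48 to 0.17). With a pseudocount of 10, the ELF4-like transcript was called in sec over pre2 (-1.05, adjusted p = 0.0339). Fitting only the libraries compared gave 776 rows higher and 531 lower for 15 h over 3 h, 1387 and 1304 for sec over pre2, 347 and 332 for post over sec, 524 and 963 for the difference between days, 766 and 433 for stem EFN over leaf and 45 and 21 for stem over leaf EFN. In that fit the PRR37-like transcript was also called for 15 h over 3 h (-0.46), sec over pre2 (-0.32), post over sec (-0.63) and sec over pre1 (-0.62), and REVEILLE 1 (-0.64) and the ELF4-like transcript (-1.07) for sec over pre2, while stem EFN lost the ELF4-like call over leaf (1.18) and the GIGANTEA call over leaf EFN (1.04). The cause was not tested. Leaving out 1 library gave 305 to 551 rows higher and 144 to 386 lower for 15 h over 3 h, 453 to 864 and 164 to 474 for pre2 over pre1, 531 to 646 and 278 to 410 for sec over pre2, 53 to 271 and 83 to 333 for post over sec, 169 to 325 and 405 to 724 for the difference between days, and 53 to 338 and 47 to 209 for stem over leaf EFN. For members it gave 0.27 to 0.59 for REVEILLE 1 at 15 h over 3 h and 0.15 to 0.80 in sec over pre1, -1.06 to -0.87 for the PRR37-like transcript in post over pre2 and 0.30 to 1.28 in stem over leaf EFN, 0.72 to 1.42 for GIGANTEA in stem over leaf EFN, and 0.61 to 1.53 for the ELF4-like transcript in stem EFN over leaf and -1.08 to -0.15 in stem over leaf EFN. Replicate numbers did not pair the libraries (correlation of deviations -0.275 to 0.208 over 63 pairs with the same number), and with a replicate block REVEILLE 1 had 0.46 at 15 h over 3 h, and no member's call changed. Median ratios left 51.6% of stem EFN calls over leaf higher in place of 64.1%, and equal upper quartiles left 50.8% in place of 62.3% for 15 h over 3 h and 52.2% in place of 63.8% for pre2 over pre1. Low values such as those of the REVEILLE 6-like row rest on few reads.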

Other observations

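The lists of clock outputs and of light input and clock accessories, of 12 and 22 Arabidopsis loci, had 8 rows each. At 15 h over 3 h after dawn, 1 of the 8 output rows was called, against 12.3% of all rows. It was the cyclic dof factor LOC100788247, which was higher at 15 h (log2 fold change 0.95, adjusted p = 0.00409 by limma). Cyclic dof factors are repressors of CONSTANS that GIGANTEA and FKF1 remove in Arabidopsis. Its means were 157 ± 59.7 in pre1, 408 ± 61.2 in pre2, 475 ± 64.2 in sec and 656 ± 54.4 in post, against 22.7 ± 4.04 in leaf (SD, n = 3 each). They rose from stage to stage, and hour and stage cannot be told apart for this row. Of the 8 light input and accessory rows, 2 were called, both lower at 15 h, PHYB and the cryptochrome-2-like LOC100808627 (-0.50, adjusted p = 0.0272, lost without any of 7 of the 12 floral libraries, with adjusted p up to 0.0787). PHYB (-0.60, adjusted p = 0.0028) was lower within the day of anthesis, with 50, 52 and 43 in post and 104, 106 and 93 in sec (-1.05, adjusted p = 0.000741). In pre2 over pre1, PHYB was at -0.14 (adjusted p = 0.569). LOC100808627 was lower in floral nectaries than in leaf (-3.27, adjusted p = 6.62e-13), as was COL2a, a CONSTANS-like gene (-4.52, adjusted p = 1.08e-13).

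Within single tissues, several clock rows, picked after their values were seen, were ordered alike over the 3 libraries. In pre1, libraries 1, 2 and 3 had REVEILLE 1 values of 596, 1167 and 1465, LHY variant X1 (LOC780540_XM_006604855.2) values of 1546, 2490 and 4203 and cyclic dof factor 3 (LOC778113) values of 737, 1165 and 2045, with summed nectary markers of 96201, 168586 and 194670. In post, libraries 1, 2 and 3 had GIGANTEA values of 1444, 1149 and 814, ELF4-like values of 545, 253 and 222 and LHY variant X1 values of 3941, 3226 and 1326, with summed nectary markers of 123275, 65240 and 40346. Library 1 was thus the lowest of pre1 and the highest of post in the rows given for each. Other clock rows had library 1 highest in pre1 or lowest in post, and the rows in each order were not counted. In pre1 the clock output row LOC100305467 had 6531, 5612 and 4810, and in post MYB133 had 387, 527 and 447. The nectary marker LOC100500026 had 8113, 6811 and 4789 in pre1. The part of collection time or of the piece dissected was not tested.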
